A study of Mus musculus with 2 samples.

Results

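Ribosomal protein transcripts were followed in the cells of 6 Bm12 heart allografts. The genes were all those of the deposited expression matrix whose symbol names a cytoplasmic ribosomal protein of the large subunit (Rpl, including the stalk proteins Rplp) or of the small subunit (Rps, including *Rpsa* and leaving out the Rps6k kinases). The rule found 85 of 22337 genes, of which 51 had large subunit names and 34 small subunit names. It also took in *Rps19bp1*, which encodes a binding partner of a small subunit protein, and *Rpl7l1*, a nucleolar relative of *Rpl7* that works in ribosome assembly. The rule reads gene symbols and no measured value, but it was set with earlier results of these data known. Their levels were described in the 14 cell types of the deposited annotation and compared between the graft groups.

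Bm12 donors carry an altered MHC class II molecule that CD4+ T cells of the C57BL/6 (B6) recipients recognise. Donors of the IL-33+ group were Bm12 mice with *Il33*, and donors of the IL-33- group were Bm12 mice lacking *Il33* in the whole animal. All recipients were B6 mice that kept their own *Il33*, so the deletion was limited to donor tissue. Grafts were taken on postoperative day 14 (POD14), 3 hearts per group, called IL-33+ replicates 1 to 3 and IL-33- replicates 4 to 6 here as the labels number the hashtags. All donors and recipients were male, per the study's methods, and their age is not given in the sources used here. Cells were released with collagenase, enriched on a density gradient, marked with a hashtag antibody for each heart and run together in 1 pooled library with a 10x Genomics 3' kit. The annotation held 4441 cells and 4441 distinct barcodes. As it gives each barcode a single hashtag, this count cannot show whether a droplet held cells of several hearts. A heart contributed 230 to 1666 cells and 908139 to 7012940 unique molecular identifiers (UMIs), and a cell had 1500 to 14977 UMIs.

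The group labels could not be checked by the deleted gene. In fibroblasts, the mean level of *Il33* was 24.3, 0 and 50.7 CPM (UMIs of a gene scaled to a common total in each cell) in the hearts labelled IL-33+ and 32.6, 73.8 and 16.1 CPM in the hearts labelled IL-33-, with overlapping groups and 0 to 121 UMIs behind each value. A 3' tag can lie outside the deleted part of a gene, so these reads do not decide the genotype. Markers of most annotated types were highest in the type of that name. Neutrophil markers (*S100a8*, *S100a9*, *Retnlg*, *Csf3r*) were highest in the cells called Mo-DCs, with a summed mean of 17288 CPM and 1407 to 69129 CPM over hearts. Endothelial markers were highest in the cells called fibroblasts, at 417 CPM, and cardiomyocyte markers did not exceed 26.5 CPM in any type.

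A ribosome is built from a small subunit that reads the mRNA and a large subunit that joins the amino acids, and each protein is needed in about the same amount as the others. Most mRNAs of ribosomal proteins, and of several translation factors, start with a run of pyrimidines called a terminal oligopyrimidine (TOP) tract. The kinase mTOR controls how strongly such mRNAs are translated. Resting lymphocytes are known to store ribosomal protein mRNAs and to raise their translation on activation. A few members have a close relative that can take their place in the ribosome, such as *Rps27* and *Rps27l*, *Rpl22* and *Rpl22l1*, or *Rpl36a* and *Rpl36al*.

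RefSeq start site sequences (GRCm38.p6) were found for 65 of the 85 genes, and the windows below are shown because they hold the start of the transcripts whose levels are compared later. Each window has 30 bases, 15 before the annotated start and 15 from it on. Capitals mark the longest run of C and T where it reached 8 bases, and for genes with several starts the start with the longest run was used, for members and for all other genes alike. *Rpl7a* and *Rpl35* were chosen for long runs, and the other windows are those of 3 families of paralogs and of *Rpl10*, which after *Rps27l* ranged most over types relative to the other members.
Rpl7a (chr2:26910792-26910821, plus strand): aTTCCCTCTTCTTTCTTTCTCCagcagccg
Rpl35 (chr2:39005117-39005146, minus strand): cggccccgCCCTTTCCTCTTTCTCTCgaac
Rps27 (chr3:90213634-90213663, minus strand): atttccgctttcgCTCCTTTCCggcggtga
Rps27l (chr9:66946071-66946100, plus strand): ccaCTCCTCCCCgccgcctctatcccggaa
Rps27rt (chr9:114982725-114982754, minus strand): agaacttatcccttgctttccggcggtgac
Rpl36a (chrX:134585639-134585668, plus strand): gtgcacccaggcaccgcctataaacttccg
Rpl36al (chr12:69184053-69184082, minus strand): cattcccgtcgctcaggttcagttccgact
Rpl22 (chr4:152324421-152324450, plus strand): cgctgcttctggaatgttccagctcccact
Rpl22l1 (chr3:28805493-28805522, plus strand): gtgcggcgcaagcccgTTCTCTTCCCacgg
Rpl10 (chrX:74270801-74270830, plus strand): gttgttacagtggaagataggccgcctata

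A run of at least 8 C or T bases on the transcribed strand was found in the window of 27 of the 65 members (41.5%) and of 3760 of all 27025 genes with a sequence (13.9%). The longest run of a member had 21 bases (*Rpl7a*) and the median was 7. Members with a run had a median level of 1144 CPM and members without one 1130 CPM. Their levels relative to the other members ranged over the types by a median of 0.62 and 0.58 on the log2 scale. A run in these windows is a description of the letters and says nothing of where transcription started in these cells. For the other 20 members no sequence was printed.

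Ribosomal protein genes gave 13.3% of all UMIs, and the median cell had 499 UMIs from 77 of the members. Naive T cells (Tn) gave the largest part of their UMIs to these genes, and fibroblasts and monocyte-derived dendritic cells (Mo-DCs) the smallest. The share in Tn was 24.7%, 21.3% and 22.4% in the IL-33+ hearts and 23.0%, 23.7% and 20.7% in the IL-33- hearts, a mean of 22.6% ± 1.505 (SD, n = 6 hearts). In fibroblasts it was 7.45%, 7.64% and 7.81% in the IL-33+ hearts and 8.54%, 8.17% and 8.16% in the IL-33- hearts, a mean of 7.96% ± 0.401 (SD, n = 6 hearts). Tn had the highest share of all types in 6 of 6 hearts, and fibroblasts or Mo-DCs had the lowest in 6 of 6. Within a heart, the share in Tn was 2.85 ± 0.264 times that in fibroblasts (SD over 6 hearts, range 2.54 to 3.32). The authors annotated the types from the expression of the same cells, so differences between types are given as descriptions with no test.

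**Figure D1:**
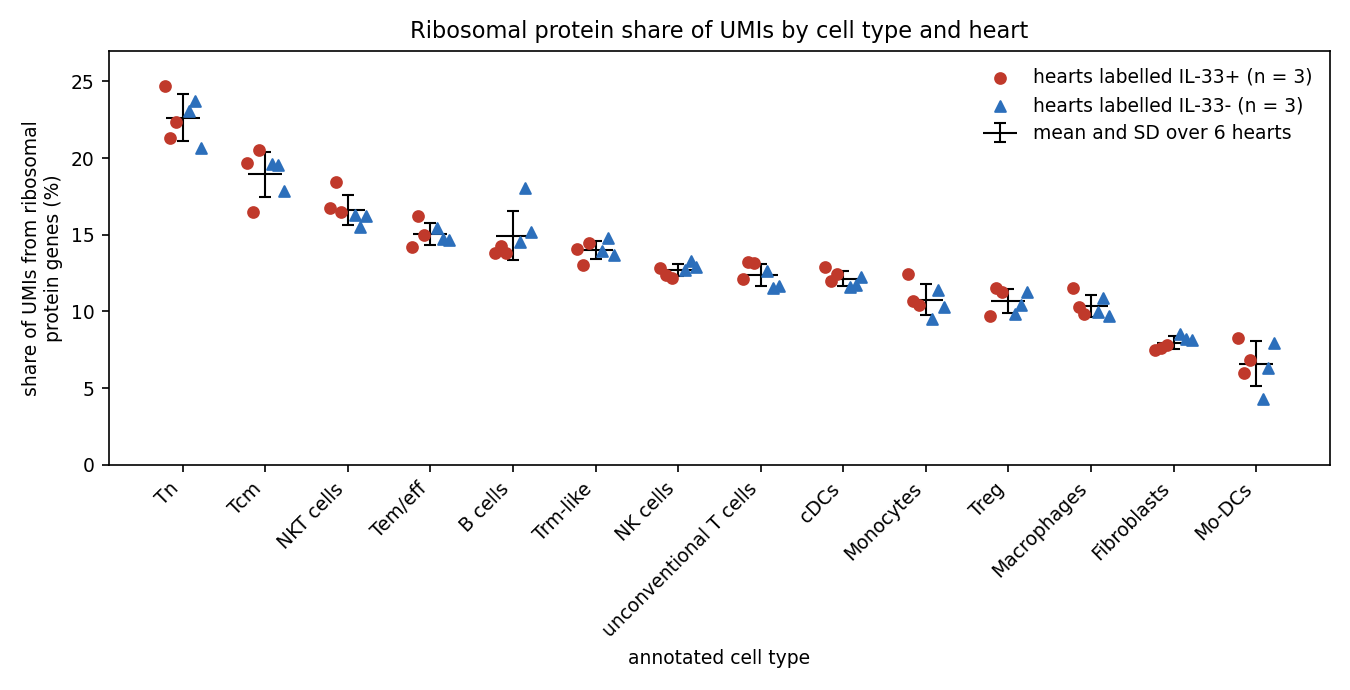
Share of UMIs that came from ribosomal protein genes (percent, y axis) in each annotated cell type (x axis), with 1 point per heart, circles for IL-33+ and triangles for IL-33- hearts, and bars for the mean and SD over 6 hearts. Tn sit at 20.7% to 24.7%, above every other type, and Mo-DCs and fibroblasts lie at the bottom.

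T cell types stood at the top of this order and also in its lower part. Central memory T cells (Tcm) followed Tn at 18.9% ± 1.48, with hearts between 16.5% and 20.5%, and the heart values of Tn and Tcm did not overlap. NKT cells had 16.6% ± 0.996, effector memory and effector T cells (Tem/eff) 15.03% ± 0.718, and T cells with a tissue-resident profile (Trm-like) 14.0% ± 0.602 (SD, n = 6 hearts each). Tregs had the lowest share of the T cell types at 10.7% ± 0.776, with hearts between 9.71% and 11.5%, and every Treg value lay below every Tn value. Tcm were below Tn by 3.70 ± 1.24 percentage points and this held in 6 of 6 hearts. NKT cells were above Tem/eff in 6 of 6 hearts as well, but their heart values overlapped.

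Outside the T cells, B cells had 14.9% ± 1.61, NK cells 12.7% ± 0.392 and unconventional T cells 12.4% ± 0.727. The myeloid types followed with conventional dendritic cells (cDCs) at 12.1% ± 0.486, monocytes at 10.8% ± 1.02, macrophages at 10.4% ± 0.719 and Mo-DCs at 6.60% ± 1.45 (SD, n = 6 hearts each). Macrophages were above fibroblasts by 2.39 ± 0.989 percentage points in 6 of 6 hearts with no overlap. Between all other neighbours in the order the heart values overlapped, so neither the order of Tem/eff and B cells nor that of monocytes, Tregs and macrophages was set by these 6 hearts. Some values rest on few cells, with 2 unconventional T cells and 4 Mo-DCs in replicate 2 and 4 B cells and 4 fibroblasts in replicate 5.

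Single cells spread far more than hearts. The share in a cell ran from 1.08% to 42.8%, the middle 90% of Tn lay between 15.3% and 28.3%, and the same part of Mo-DCs lay between 1.69% and 14.4%. Small subunit names took an even part of the member UMIs in every type, from 44.7% in NK cells to 47.8% in B cells. Both subunits therefore followed the order of the types together.

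Depth and mitochondrial reads differed between types beside the share. Tn had a median of 2764 UMIs per cell, fibroblasts 5790 and Mo-DCs 2310. Within a type, Spearman's rho over cells between the share and the UMIs of a cell lay between 0.0932 and 0.542, and that between the share and the mitochondrial percent lay between -0.106 and 0.252. Among cells of 2000 to 3500 UMIs, Tn had 22.7% (197 cells), Tcm 16.3% (74 cells), B cells 14.4% (146 cells), Trm-like cells 14.2% (232 cells), NK cells 12.3% (615 cells), Tregs 10.8% (161 cells), Mo-DCs 7.98% (105 cells) and fibroblasts 6.64% (58 cells). Tn stayed at the top and fibroblasts below the lymphocytes at matched depth. No NKT cell, monocyte or unconventional T cell fell in this range, and only 4 cDCs did.

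Cells with markers of another type were counted inside 4 types. Of the Mo-DCs, 50 cells (24.5%) had at least 2 of the 4 neutrophil markers (0% to 5.19% in the other types), and their mean share was 3.70% ± 1.85 (SD over cells) against 7.79% ± 5.42 in the other 154. Of the fibroblasts, 64 cells (17.1%) had at least 2 of the 3 endothelial markers *Pecam1*, *Cdh5* and *Kdr*, whose mean share differed from the 7.84% ± 2.78 of the rest by less than that SD over cells. A UMI of *Foxp3*, the defining factor of Tregs, was found in 51 of 263 Tregs (19.4%), with 9.55% against 11.0% in those without. It was also found in 14.5% of unconventional T cells and 8.87% of Tem/eff, and in 0% to 2.02% of the other types. Of the unconventional T cells, 66 of 83 (79.5%) had at least 2 of 5 macrophage markers such as *C1qa* and *Apoe*, with 12.1% against 14.1%. The same was found in 76.9% of macrophages, in 52.6% of monocytes and in 4.19% to 7.78% of the NK, NKT and other T cell types and B cells, and the unconventional T cells were the deepest, with a median of 10175 UMIs. The part of depth in this share was not tested, and the type is called by its label. Erythroid markers were highest in Mo-DCs, at 94.0 to 19971 CPM over hearts, and platelet markers reached 132 CPM in macrophages. The part of these cells in the order of the types was not tested, except that without the cells with neutrophil markers the mean over hearts in Mo-DCs was 7.39%, still the lowest of the types.

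Levels of single members are means of CPM, taken in each heart over the cells that share a type. The 3' kit gives 1 UMI for each captured transcript, so levels were compared between genes without dividing by length. The members covered a wide range, with 52 genes at 1000 CPM or more on average over the types, 81 at 50 CPM or more, and a median of 1215 CPM. The 10 highest genes gave 29.3% of the member UMIs. Small subunit names had a median level of 1634 CPM and large subunit names 1031 CPM.

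*Rpl37a*, a zinc-binding protein of the large subunit on chromosome 1 (72711290 to 72713813, GRCm38), had the highest mean over types at 5769 CPM. In Tn it was 11664, 9001 and 9217 CPM in the IL-33+ hearts and 9589, 10821 and 9406 CPM in the IL-33- hearts. In Mo-DCs it was 3302, 2746 and 3206 CPM in the IL-33+ hearts and 1737, 1968 and 3603 CPM in the IL-33- hearts. Every Tn value was above every Mo-DC value, with means of 9950 ± 1054 and 2760 ± 759 CPM (SD, n = 6 hearts).

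*Rplp1*, a stalk protein that recruits elongation factors, came next at 5400 CPM and reached 11672 ± 1055 CPM in Tn against 2757 ± 312 CPM in monocytes (SD, n = 6 hearts). *Rpl41*, the shortest protein of the ribosome, had 4085 CPM, *Rps29* 3598 CPM and *Rps9*, which lies near the entry of the mRNA, 3594 CPM. At the other end were *Rps27rt*, an intronless relative of *Rps27*, at 92.9 CPM, *Rpl7l1* at 36.3 CPM and *Rps19bp1* at 13.4 CPM. *Rpl3l*, the muscle form of *Rpl3*, had 19 UMIs in all cells together, and *Rpl39l*, a form known from the testis, had 23. The last pair is at the limit of what was counted, and no order over types was read from it.

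Most members were highest in the same type. Of the 81 members at 50 CPM or more, 71 were highest in Tn and 79 were lowest in Mo-DCs or fibroblasts. The fold between the highest and the lowest type was 7.54 for *Rps27l*, 6.76 for *Rpl12*, a protein at the base of the stalk, 6.10 for *Rps20* and 6.09 for *Rps18*. *Rps20* had 3887 ± 297 CPM in Tn and 637 ± 262 CPM in Mo-DCs (SD, n = 6 hearts). *Rpl41*, *Rpl39*, *Rpl37*, *Rpl27* and *Rpl7a* were highest in NKT cells, and *Rps12* and *Rps18* in Tcm. *Rpl10* and *Rpl36al* were highest in monocytes and *Rps27l* in cDCs. *Rplp1*, lowest in monocytes, and *Rps27l*, lowest in Tn, were the exceptions at the low end.

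The genomic setting of the members bears on how surely their reads were placed. The 85 genes lay on 19 chromosomes, with 14 on chromosome 7 and 4 on X (GENCODE vM21). Within their bounds, 30 members held 58 small nucleolar RNA genes, which guide changes of ribosomal RNA bases and are often cut from introns of such host genes. The hosts had a median level of 1472 CPM and the others 1090 CPM. Annotated pseudogenes carrying a member's name numbered 298, for 60 members, led by *Rps12* and *Rpl31* with 24 each. Reads of a member and of a near-identical copy cannot always be told apart, so levels of members with many copies are less certain.

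To see which members departed from the others, each level was set against the mean of all members in the same type and heart on the scale of log2(mean CPM + 10). On this scale the range over types was small for most members, with a median of 0.60, and 10 of 81 members ranged by 1 or more. *Rpl13* ranged least, by 0.25, followed by *Rpl23*, *Rps10* and *Rpl6*, at 0.29 each. *Rpl13* was 2789 ± 199 CPM in Tn and 1209 ± 96.4 CPM in fibroblasts (SD, n = 6 hearts), a difference in step with the other members.

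**Figure D2:**
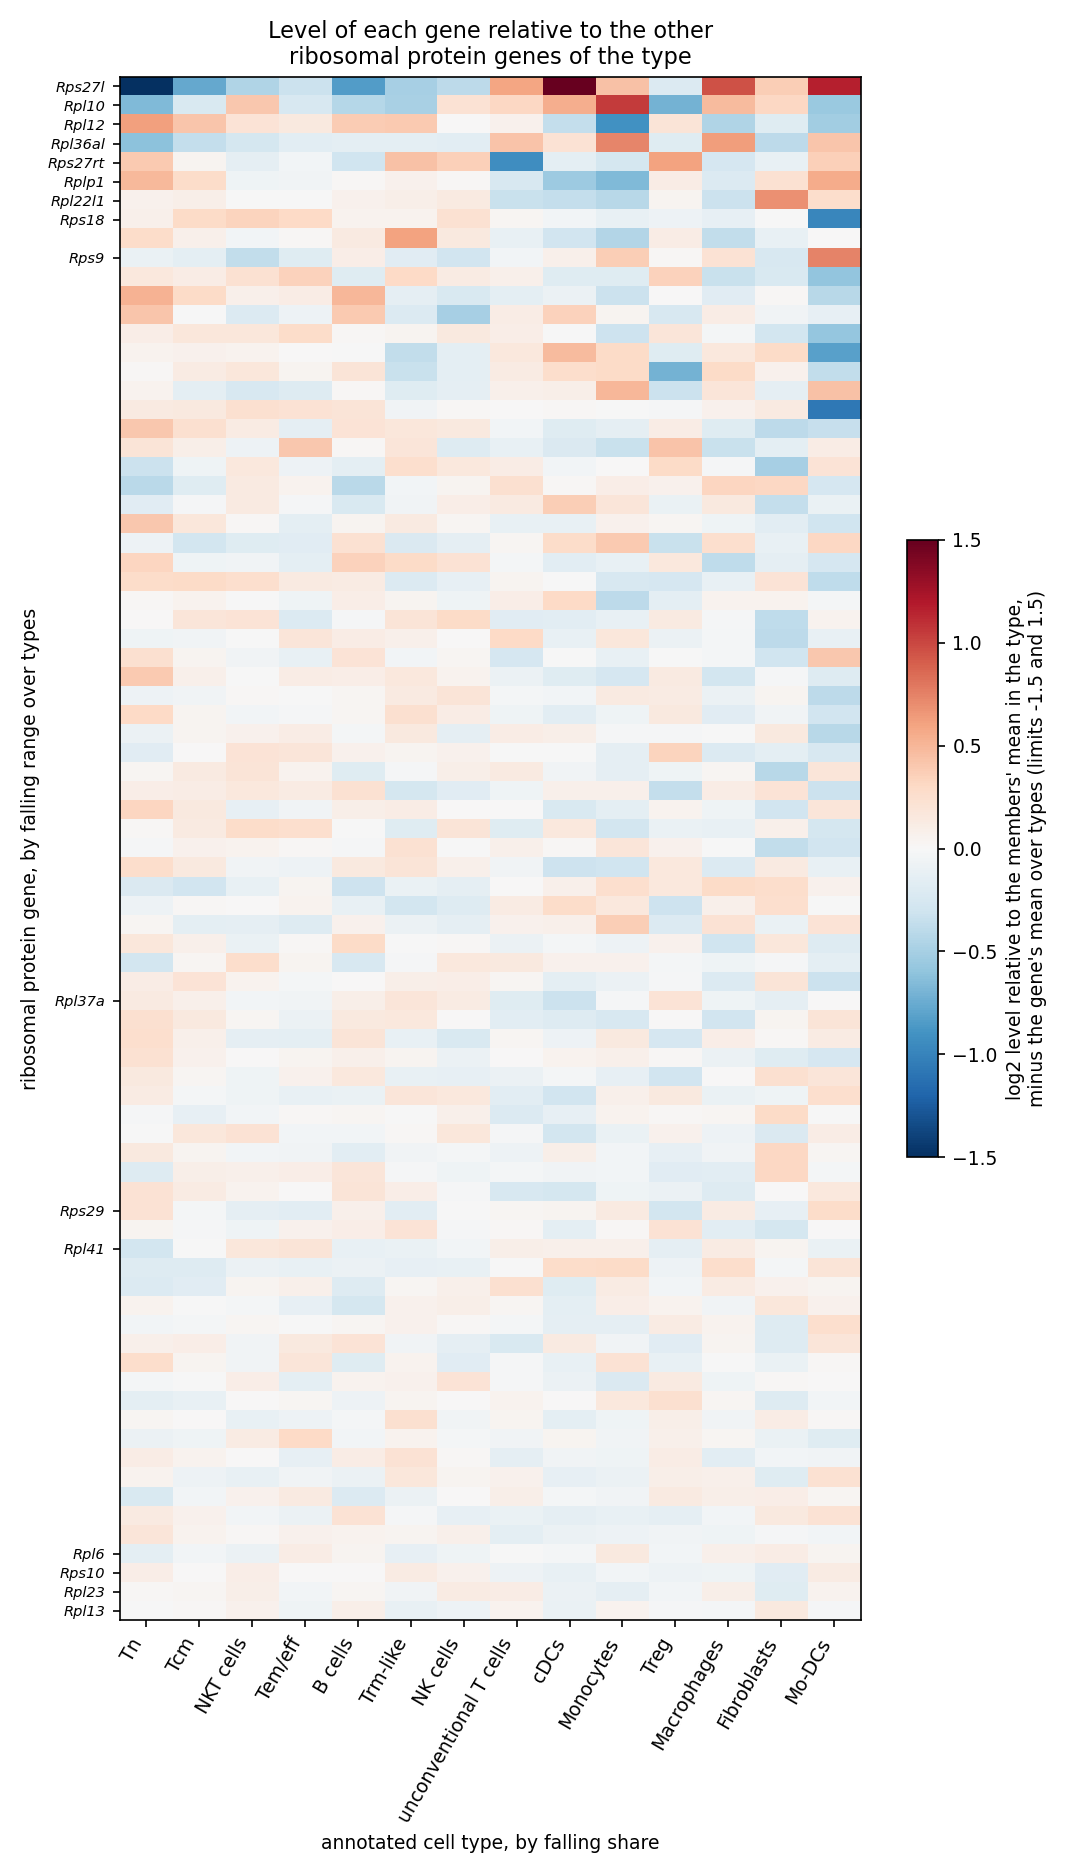
Level of each of 81 ribosomal protein genes (rows, by falling range) in each annotated cell type (columns), as log2(mean CPM + 10) relative to the mean of the members in that type and centred on the gene's own mean over types, with red for higher and blue for lower. Colours stop at -1.5 and 1.5, and labels mark the genes that ranged most or least or had the highest or lowest levels. The strongest colours lie mostly in the rows from *Rps27l* to *Rps18* at the top, with a few further down in Mo-DCs and Tregs.

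*Rps27l*, a paralog of *Rps27* that is known as a target of p53, ranged most, by 3.50. In cDCs it was 595, 783 and 462 CPM in the IL-33+ hearts and 639, 743 and 1077 CPM in the IL-33- hearts. In Tn it was 112, 115 and 62.0 CPM in the IL-33+ hearts and 77.2, 85.3 and 118 CPM in the IL-33- hearts. All 6 cDC values lay above all 6 Tn values, the reverse of most members. Relative to the members it stood at -0.53 ± 0.43 in cDCs, -1.29 ± 0.18 in macrophages and -4.02 ± 0.37 in Tn on the log2 scale (SD, n = 6 hearts).

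*Rpl10*, a large subunit protein that is added late in assembly and is encoded on X, ranged by 1.74. It was 730, 862 and 713 CPM in monocytes of the IL-33+ hearts and 631, 764 and 616 CPM in those of the IL-33- hearts. In Tregs it was 204, 235 and 235 CPM in the IL-33+ hearts and 197, 154 and 174 CPM in the IL-33- hearts. Monocytes were above Tregs in every heart, although the shares of both types overlapped over hearts. *Rpl10* has 6 annotated pseudogenes, so part of its reads could belong to a copy.

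*Rpl12* went the other way and ranged by 1.47, from 0.30 ± 0.18 above the members' mean in Tn to -1.22 ± 0.42 in monocytes on the log2 scale (SD, n = 6 hearts). Its level in Tn was 1886, 2259 and 2035 CPM in the IL-33+ hearts and 2237, 1831 and 2008 CPM in the IL-33- hearts. In monocytes it was 425, 223 and 347 CPM in the IL-33+ hearts and 294, 435 and 557 CPM in the IL-33- hearts. The values of the types did not overlap.

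*Rplp1* ranged by 1.21, with relative levels of 2.88 ± 0.38 in Mo-DCs and 2.81 ± 0.09 in Tn against 1.66 ± 0.07 in monocytes. *Rps18*, in the head of the small subunit, ranged by 1.10 and was lowest in Mo-DCs, with 162 ± 114 CPM against 935 ± 131 CPM in NKT cells (SD, n = 6 hearts). *Rps27rt* ranged by 1.27, but its level was 48.5 ± 27.5 CPM in fibroblasts and 186 ± 32.1 CPM in Tn, and it was listed at 0 in some hearts. Its pattern is the least certain of these genes, since it stands on few UMIs and its sequence is close to that of *Rps27*.

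The pairs of paralogs were then compared within themselves, as the part of the summed CPM of a pair that came from the paralog. This part does not depend on the total of the other members. *Rps27l* made up 28.6% ± 6.58 of the pair with *Rps27* in cDCs, with 25.6%, 31.1% and 19.0% in the IL-33+ hearts and 27.2%, 29.8% and 38.9% in the IL-33- hearts. In Tn it made up 2.31% ± 0.676, between 1.54% and 3.46% over hearts (SD, n = 6). Macrophages had 21.2% ± 3.34, Mo-DCs 23.3% ± 11.5, monocytes 13.9% ± 4.598 and fibroblasts 13.04% ± 3.74. The lymphocytes lay lower, with 4.30% ± 0.988 in B cells, 6.32% ± 1.09 in NK cells and 7.95% ± 3.93 in Tregs. *Rps27* itself was 4071 ± 538 CPM in Tn and 1765 ± 99.1 CPM in cDCs, so both genes of the pair differed between these types, in opposite directions.

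*Rpl36al*, an intronless autosomal copy of the X-linked *Rpl36a*, made up 62.1% ± 8.38 of its pair in monocytes and 58.4% ± 4.00 in macrophages. In Tn it made up 31.3% ± 8.38, with 27.1%, 32.8% and 27.1% in the IL-33+ hearts and 24.97%, 28.02% and 47.5% in the IL-33- hearts. The monocyte values ran from 52.4% to 76.7% and lay above all Tn values. Fibroblasts, at 35.4% ± 5.19, were closer to Tn and Tcm (34.9% ± 6.42) than to the myeloid types. *Rpl36a* was 1137 ± 243 CPM in Tn and 418 ± 122 CPM in monocytes, while *Rpl36al* was 503 ± 87.3 and 679 ± 129 CPM there.

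*Rpl22l1* made up 46.5% ± 9.11 of the pair with *Rpl22*, a protein needed in T cell development, in fibroblasts. In macrophages it made up 27.9% ± 3.08, in monocytes 28.0% ± 4.00 and in cDCs 27.9% ± 7.203. T cell types and NK cells lay between 28.8% and 36.0%, and Mo-DCs had 40.7% ± 19.4 with a heart of 4 cells at 78.9% (SD, n = 6 hearts). The fibroblast values, from 34.1% to 58.7%, overlapped those of several lymphocyte types. *Rpl39l* never exceeded 0.0999% of its pair with *Rpl39*, and *Rpl7l1* made up 0.767% to 3.67% of the pair with *Rpl7*.

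**Figure D3:**
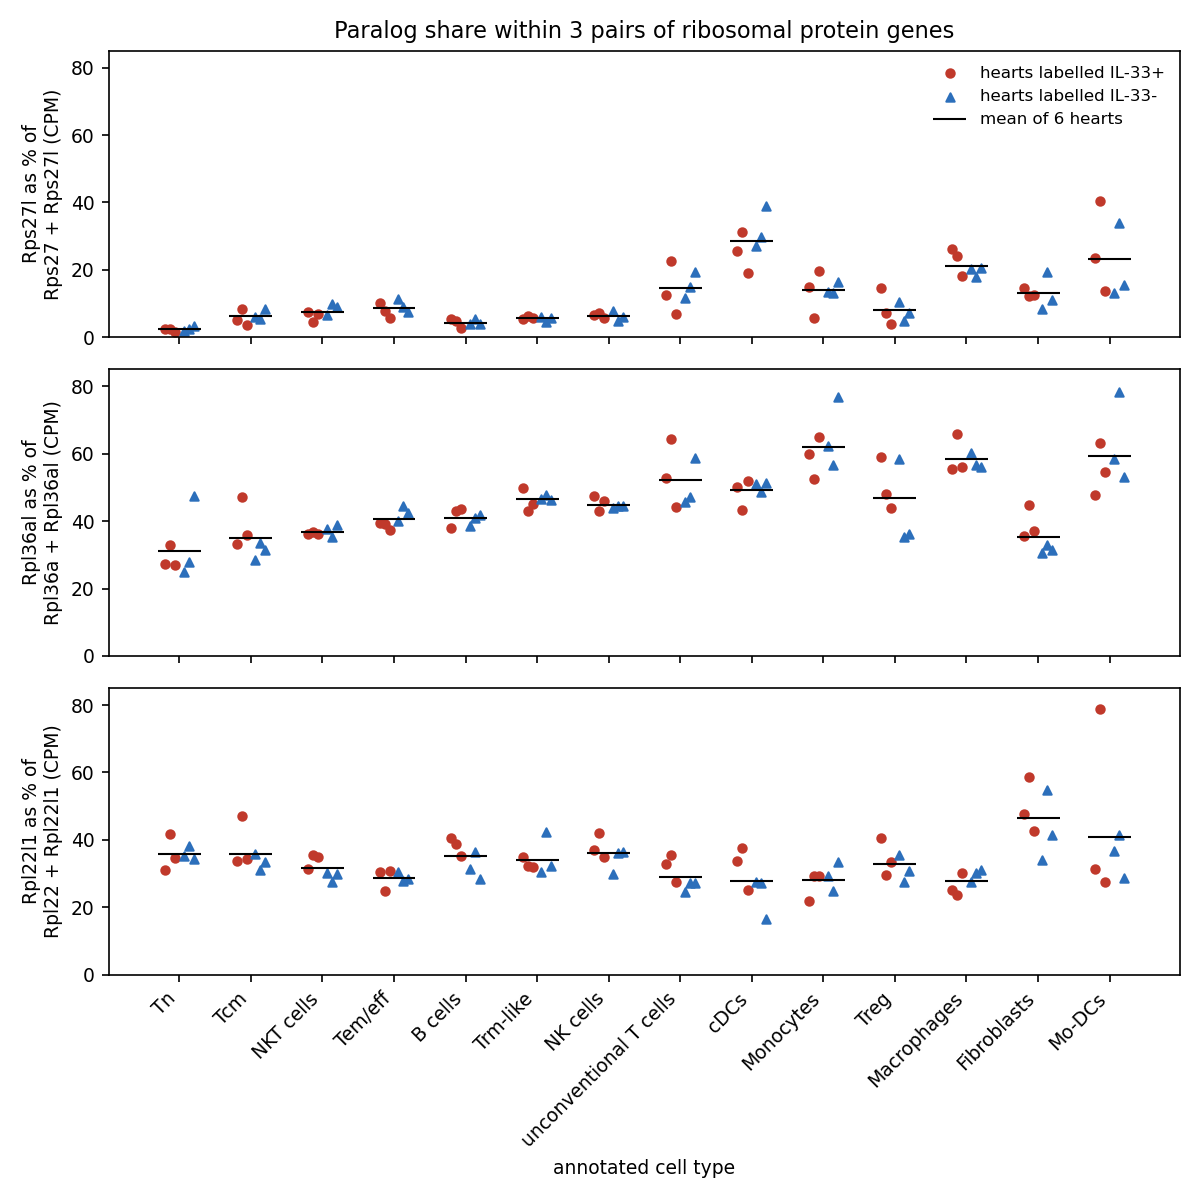
Part of a pair's CPM that came from the paralog (percent, y axis) for *Rps27l*, *Rpl36al* and *Rpl22l1* in each annotated cell type, with 1 point per heart and a line at the mean of 6 hearts. *Rps27l* makes up 28.6% in cDCs and 2.31% in Tn, *Rpl36al* 62.1% in monocytes and 31.3% in Tn, and *Rpl22l1* is highest in fibroblasts at 46.5%.

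Other genes of the translation machinery were placed beside the members, as lists whose CPM was summed per type. *Fau*, whose product is a ubiquitin-like protein fused to a small subunit protein, and *Rack1*, a scaffold on the small subunit, encode ribosome parts under other names. *Fau* was 3980 ± 213 CPM in Tn and 1214 ± 272 CPM in fibroblasts, and *Rack1* 2741 ± 322 CPM in Tn and 952 ± 336 CPM in Mo-DCs (SD, n = 6 hearts). All correlations over types are descriptions, since the 14 types share hearts and the library.

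Elongation and termination factors (12 genes) also followed the order of the members, from 20945 CPM in Tn to 8041 CPM in Mo-DCs, with a rho of 0.90. *Eef1a1*, which brings aminoacyl-tRNA to the ribosome and whose mRNA is a TOP mRNA, was 7559 ± 677 CPM in Tn and 2635 ± 693 CPM in Mo-DCs and had a rho of 0.99. *Tpt1*, another TOP mRNA, was 9441 ± 573 CPM in Tn and 3739 ± 1004 CPM in Mo-DCs. *Eef2*, which moves the ribosome along the mRNA, was highest in Tem/eff at 1244 ± 101 CPM (SD, n = 6 hearts).

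Initiation factors (31 genes) differed less, from 11773 CPM in Tcm to 7879 CPM in fibroblasts, with a rho of 0.90. Inside this list, *Eif4e*, which binds the mRNA cap, ran against the members, with 333 ± 69.7 CPM in macrophages and 59.5 ± 19.1 CPM in Tn. *Eif4a1*, the helicase that works with it, was 712 ± 34.2 CPM in macrophages and 345 ± 66.3 CPM in Tn (SD, n = 6 hearts). The list's rho therefore does not hold for each of its genes.

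Genes of mTOR signalling and TOP mRNA control (16 genes) summed to between 715 CPM in macrophages and 1354 CPM in Tem/eff, with a rho of 0.79. *Sesn3*, an inhibitor of mTOR, was 418 ± 60.04 CPM in Tem/eff and 20.1 ± 31.1 CPM in monocytes. *Eif4ebp1*, a repressor of cap-dependent translation that mTOR switches off, was 86.3 ± 52.6 CPM in monocytes and 1.44 ± 2.24 CPM in Tn. *Larp1*, which binds TOP mRNAs, was 204 ± 84.7 CPM in Tn, its highest type, and 113 ± 21.0 CPM in Mo-DCs (SD, n = 6 hearts).

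Ribosome assembly genes (41 genes) had another order at the top, with 5099 CPM in B cells and 1756 CPM in monocytes, and a rho of 0.81. *Ncl* was 1020 ± 216 CPM in B cells and *Npm1* 1506 ± 138 CPM in Tcm, both nucleolar proteins and both lowest in monocytes at 250 ± 24.4 and 363 ± 66.3 CPM. *Myc*, which drives transcription of ribosome genes, was 321 ± 62.5 CPM in fibroblasts and 32.4 CPM in Tn (SD, n = 6 hearts). The 78 mitochondrial ribosomal protein genes ran from 1735 CPM in fibroblasts to 2956 CPM in Tem/eff and had the lowest rho of these translation lists, 0.36. Early response and heat shock genes that rise during cell isolation (12 genes) were highest in fibroblasts at 18113 CPM and lowest in Tn at 4827 CPM, with a rho of -0.61. Their part in the order of the types was not tested.

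**Figure D4:**
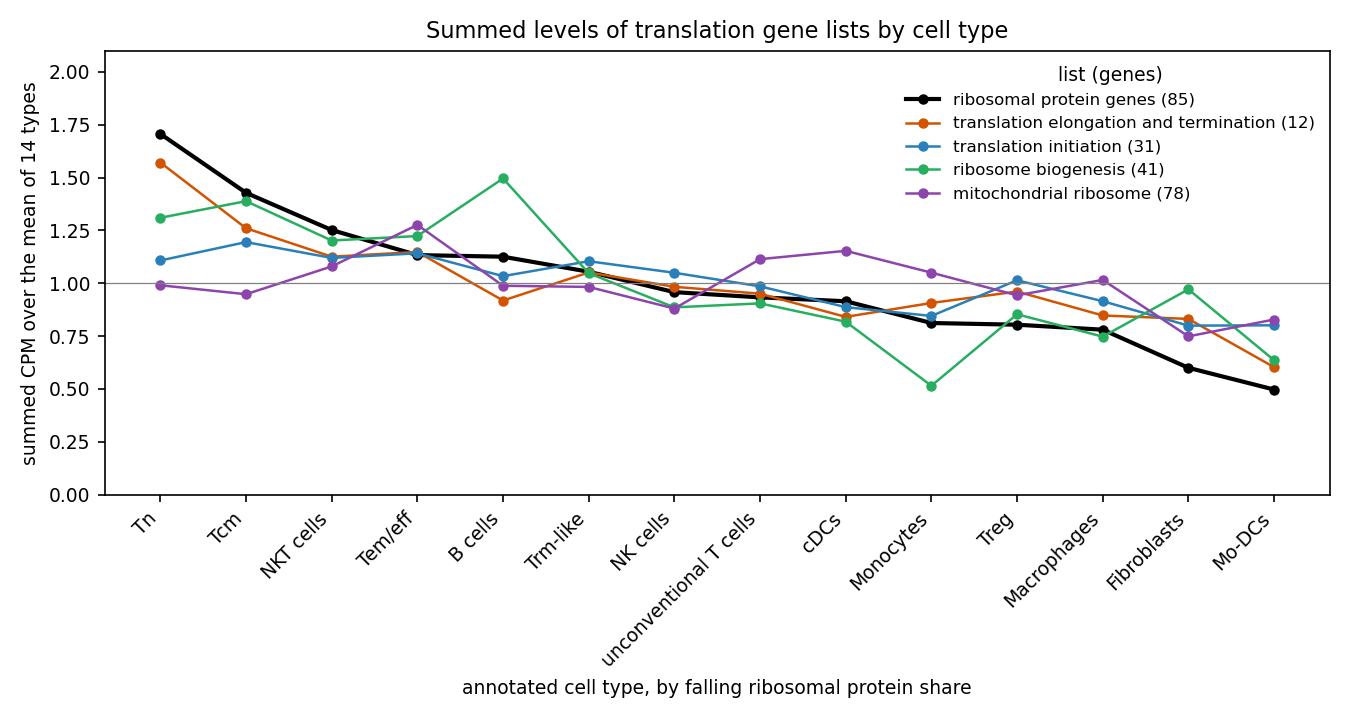
Summed CPM of 5 gene lists in each annotated cell type, divided by the mean of the list over the 14 types (y axis, starting at 0), with types by falling ribosomal protein share. Elongation factors fall with the 85 ribosomal protein genes, initiation factors fall less, ribosome assembly genes peak in B cells, and mitochondrial ribosome genes follow the order least.

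The comparison between graft groups asked whether *Il33* in the donor heart changed ribosomal protein expression in the cells that were recovered. No member passed the test at a Benjamini-Hochberg adjusted p of 0.05 in any type or in the average over types by limma, or in any type by limma-voom. At an unadjusted p of 0.05, limma called 1 of 84 members in the average (4.57% of all genes) and 35 of 1158 pairs of a member and a type (4.71% of all pairs). On the same pairs limma-voom called 50, where it called 5.08% of all pairs. The share of UMIs from the members was averaged over the 8 types with at least 10 cells in each heart (macrophages, NK, NKT, Tcm, Tem/eff, Tn, Tregs and Trm-like cells). It was 15.4%, 14.96% and 15.3% in the IL-33+ hearts and 15.1%, 15.3% and 14.6% in the IL-33- hearts. The groups overlapped, with 15.2% ± 0.236 and 15.02% ± 0.372 (SD, n = 3 hearts each) and a difference of 0.191 percentage points.

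Within types, the share overlapped between the groups in most cases. In NKT cells it was 16.7%, 18.4% and 16.5% in the IL-33+ hearts and 16.3%, 15.5% and 16.2% in the IL-33- hearts, with no overlap and a difference of 1.24 percentage points. In fibroblasts the IL-33+ hearts, at 7.63% ± 0.183, lay below the IL-33- hearts, at 8.29% ± 0.219. In B cells the IL-33+ hearts had 13.8%, 14.3% and 13.8% and the IL-33- hearts 14.5%, 18.04% and 15.2%, and the value of 18.04% rests on 4 cells. No test was made on these shares.

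In the average over the 8 types, 12944 genes were tested with limma, 84 of them members. *Rpl3l* was left out for having too few UMIs or hearts with a UMI. At an unadjusted p of 0.05, 1 member was called, against 4.57% of all genes tested, and at an adjusted p of 0.05 no member, against 0.00773% (1 gene) of all genes. The called member was *Rpl35*, a large subunit protein at the exit of the new chain. Its mean log2(CPM + 10) was 9.37, 9.40 and 9.37 in the IL-33+ hearts and 9.34, 9.12 and 9.20 in the IL-33- hearts. The groups did not overlap, and the log2 fold change of IL-33+ over IL-33- was 0.16 (SE 0.0772, 95% interval 0.00 to 0.32, limma adjusted p = 0.989). When each heart was left out, its log2 fold change lay between 0.11 and 0.22, and with fewer hearts the unadjusted call was lost in all cases but that without replicate 4. The difference was uneven over the averaged types. It was 0.93 in Tregs, 0.27 in NKT cells, 0.05 in macrophages, 0.0048 in Tn and -0.26 in Trm-like cells. The value in Tregs, where the groups overlapped, was 0.31 without replicate 5. *Rpl10a* (0.14) and *Rpl15* (0.14) followed, both with no overlap between the groups and a limma adjusted p of 0.989.

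The differences of the members were small and well bounded. Their log2 fold changes lay between -0.15 (*Rps27rt*) and 0.16, with a median of 0.015 beside -0.013 for all genes tested. Of the 84, 55 (65.5%) were above 0, beside 46.1% of all genes, and in the alternative that kept only types with 20 cells in each heart the median of the members was -0.0084. The median 95% interval of a member reached 0.13 to either side, and the intervals of all 84 lay within 1 log2 unit of 0, with outer bounds of -0.48 and 0.45. These intervals are given because a p above the threshold does not show that the groups were alike.

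**Figure D5:**
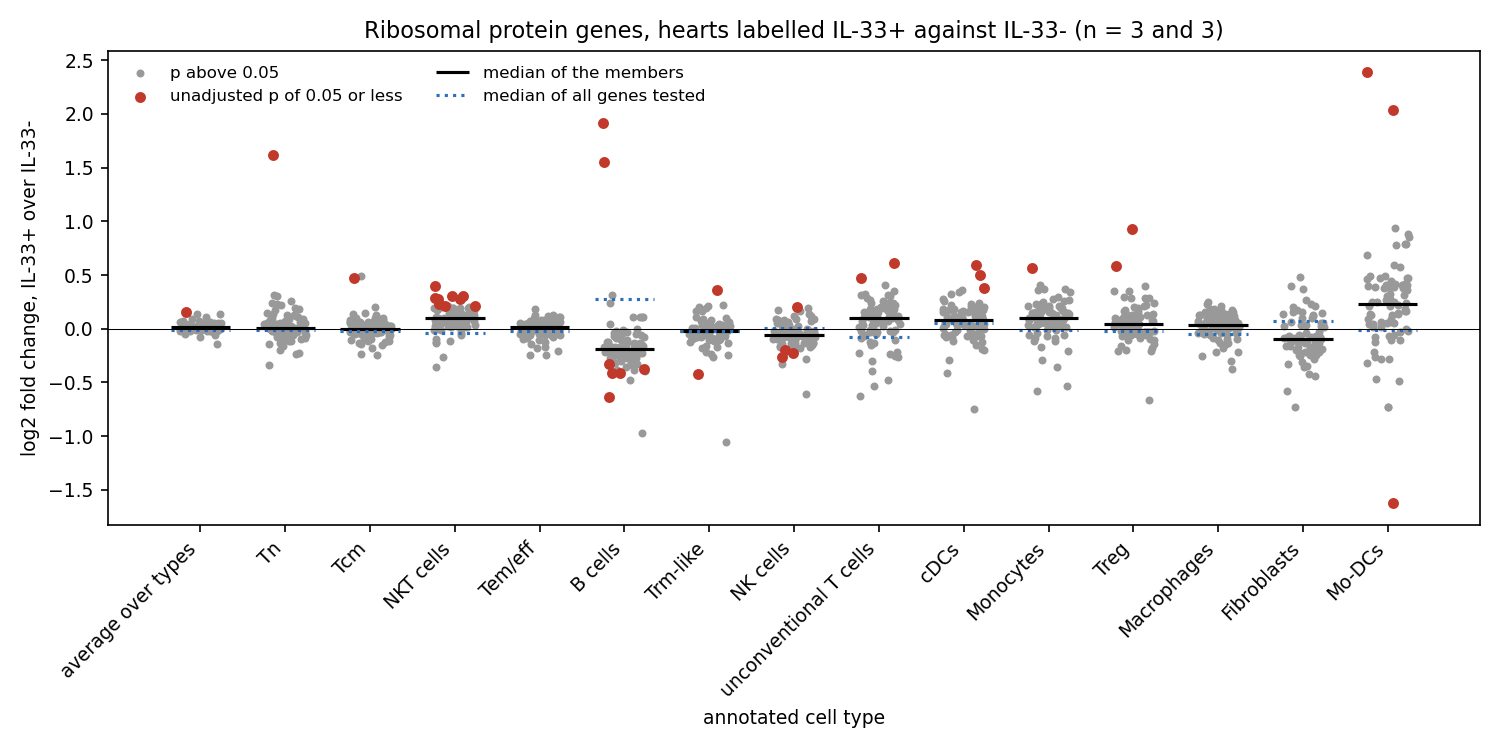
Log2 fold change of IL-33+ over IL-33- hearts (y axis) for each ribosomal protein gene tested, in the average over types and in each annotated type (x axis), with 3 hearts per group. Larger red points have an unadjusted p of 0.05 or less, black bars are the median of the members and dotted blue bars that of all genes tested, and the points lie within 0.16 of 0 in the average but spread to 2.39 in Mo-DCs.

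Inside single types, each comparison had fewer cells behind it. Over the 14 types, 35 of 1158 pairs of a member and a type had an unadjusted p of 0.05 or less (3.02%, beside 4.71% of all pairs of a gene and a type). None had an adjusted p of 0.05 or less, beside 10 of 113173 pairs of all genes (0.00884%). The 35 pairs came from 26 members, 8 of them in more than 1 type, and how often this held for all genes was not counted. *Rpl35* appeared most often, in 3 types and not in 1 direction, being lower in B cells and higher in NKT cells and Tregs of the IL-33+ hearts. Without replicate 2 the count was 14 and without replicate 5 it was 9. In the fits without a heart, here and below, the share of all genes called was not counted, so these counts have nothing beside them.

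NKT cells held the most such members, 9 of 83 (10.8%) where 4.88% of all genes tested had such a p, and all 9 were higher in the IL-33+ hearts. They were *Rpl22l1*, *Rps28*, *Rps29*, *Rps15a*, *Rpl6*, *Rpl36*, *Rps12*, *Rpl7a* and *Rpl35*. *Rpl22l1* was 582, 807 and 657 CPM in the IL-33+ hearts and 563, 427 and 557 CPM in the IL-33- hearts, with a log2 fold change of 0.39 (SE 0.155, limma adjusted p = 0.924). *Rps28* was 4231, 4191 and 3902 CPM in the IL-33+ hearts and 3610, 3157 and 3771 CPM in the IL-33- hearts, with a log2 fold change of 0.23 (SE 0.0932, limma adjusted p = 0.924). Neither gene overlapped between the groups. The median over the 83 members was 0.10 beside -0.04 for all genes. No member was left at this threshold without replicate 5, which had 28 NKT cells, and 3 were left without replicate 2, which had 17. By limma-voom on summed UMIs the count was 3, where 5.94% of all genes passed in that fit.

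In B cells 7 of 83 members passed the unadjusted threshold where 4.19% of all genes did, 5 lower and 2 higher in the IL-33+ hearts. *Rps12* was 2593, 3141 and 3036 CPM in the IL-33+ hearts and 3186, 4022 and 4259 CPM in the IL-33- hearts, with a log2 fold change of -0.38 (SE 0.157, limma adjusted p = 0.844). The groups did not overlap for *Rps12*, but replicate 5 held only 4 B cells. *Rpl35* was at -0.64 in B cells (SE 0.279, limma adjusted p = 0.844), and overlapped between the groups, and without replicate 5 it was at -0.24. The median of the members was -0.19 while that of all genes was 0.28. The count was 1 without replicate 1 or replicate 2, 3 without replicate 3, 5 without replicate 5 and 11 without replicate 4.

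In NK cells, the largest type with 931 cells, 4 of 83 members passed the unadjusted threshold where 5.82% of all genes did. *Rps21* was 2550, 2453 and 2422 CPM in the IL-33+ hearts and 2796, 2938 and 2776 CPM in the IL-33- hearts, with a log2 fold change of -0.20 (SE 0.0837, limma adjusted p = 0.846). *Rpl24*, at a bridge between the subunits, was 864, 783 and 825 CPM in the IL-33+ hearts and 927, 1084 and 961 CPM in the IL-33- hearts, with a log2 fold change of -0.26 (SE 0.114, limma adjusted p = 0.846). Both were lower in every IL-33+ heart than in any IL-33- heart. *Rps20* was also lower (-0.22) and *Rps23* higher (0.20), and no member was left without replicate 3 or replicate 5.

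Among the other T cells, no member passed the unadjusted threshold in Tem/eff, where 4.41% of all genes did. The smallest p there were those of *Rpl36al* (-0.20) and *Rps27l* (-0.24), both at a limma adjusted p of 0.998 and with overlapping groups. In Tn it was 1 of 82 members (all genes 4.92%), *Rpl7l1*, at 72.5, 78.5 and 53.5 CPM in the IL-33+ hearts and 43.9, 0 and 19.7 CPM in the IL-33- hearts. This is a gene of few UMIs, and its log2 fold change of 1.62 (SE 0.725, limma adjusted p = 0.952) depends on the 10 CPM that were added. *Rpl13a* in Tn had 4894, 5069 and 4460 CPM against 4266, 4278 and 3734 CPM, with a log2 fold change of 0.23 (SE 0.126, limma adjusted p = 0.952). In Tcm it was 1 of 83 members (all genes 4.87%), *Rpl36al*, with a log2 fold change of 0.47 (SE 0.189, limma adjusted p = 0.951). *Rpl36al* in Tcm was 591, 725 and 554 CPM in the IL-33+ hearts and 388, 562 and 403 CPM in the IL-33- hearts, which overlapped, and *Rpl3* in Tcm came next at 0.20 (limma adjusted p = 0.969).

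In Tregs 2 of 82 members passed the unadjusted threshold (all genes 5.10%). *Rpl35* was 271, 566 and 419 CPM in the IL-33+ hearts and 300, 81.2 and 346 CPM in the IL-33- hearts, with a log2 fold change of 0.93 (SE 0.360, limma adjusted p = 0.897). The groups overlapped, and without replicate 5 the log2 fold change was 0.31. *Rpl36al* was at 0.58 in Tregs (SE 0.278, limma adjusted p = 0.923). In Trm-like cells 2 of 82 members passed (all genes 5.05%), among them *Rpl10a* at 0.36 (SE 0.170, limma adjusted p = 0.923). In unconventional T cells 2 of 83 passed (all genes 4.54%), *Rpl36* at 0.61 and *Rps15* at 0.47, both at a limma adjusted p of 0.984.

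In macrophages no member passed the unadjusted threshold, where 4.04% of all genes did. The member with the smallest p was *Rps27*, at 1159, 1079 and 1165 CPM in the IL-33+ hearts and 1455, 1464 and 1290 CPM in the IL-33- hearts, with a log2 fold change of -0.30 (SE 0.178, limma adjusted p = 0.987). These groups did not overlap. *Rpl38* in macrophages had a log2 fold change of 0.23 (limma adjusted p = 0.987). The median of the 83 members was 0.04, beside -0.05 for all genes.

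In monocytes 1 of 83 members passed (all genes 4.87%), *Rpl21*, at 617, 756 and 739 CPM in the IL-33+ hearts and 401, 657 and 394 CPM in the IL-33- hearts, with a log2 fold change of 0.57 (SE 0.253, limma adjusted p = 0.965). *Rpl13* in monocytes had a log2 fold change of 0.37 with no overlap (limma adjusted p = 0.965). By limma-voom on summed UMIs the count in monocytes was 18 of 83 members, where 4.75% of all genes passed in that fit, and no member had an adjusted p of 0.05 or less. In cDCs 3 of 83 passed (all genes 6.79%), *Rpl31* at 0.50 (limma adjusted p = 0.706), *Rpl22l1* at 0.59 (limma adjusted p = 0.720) and *Rpl3* at 0.38. *Rpl31* in cDCs was 646, 712 and 756 CPM in the IL-33+ hearts and 506, 411 and 574 CPM in the IL-33- hearts, with no overlap, and no member was left in cDCs without replicate 5.

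In Mo-DCs 3 of 82 passed (all genes 3.49%). *Rpl10a* was 318, 327 and 324 CPM in the IL-33+ hearts and 120, 0 and 188 CPM in the IL-33- hearts, with a log2 fold change of 2.39 (SE 0.743, limma adjusted p = 0.470). The value of 0 comes from replicate 5, which had 7 Mo-DCs, and without it the log2 fold change was 1.05. *Rpl31* was at 2.03 and *Rpl10* at -1.62 in Mo-DCs (both at a limma adjusted p of 1.00), and both overlapped between the groups. *Rpl31* was also 0 CPM in replicate 5, and its log2 fold change lay between 0.76 and 3.16 when each heart was left out. *Rpl10* stood at 3.32 on the log2 scale, the value of 0 CPM, in replicate 2, which had 4 Mo-DCs. The intervals were wide, with 14 of 82 inside 1 log2 unit of 0. Neutrophil markers in Mo-DCs summed to 1451 to 8623 CPM in the IL-33+ hearts and 1407 to 69129 CPM in the IL-33- hearts, and their part in these values was not tested. In fibroblasts no member passed (all genes 3.16%), and the smallest p was that of *Rpl26*, at 480, 247 and 572 CPM in the IL-33+ hearts and 623, 605 and 624 CPM in the IL-33- hearts, with a log2 fold change of -0.58 (SE 0.317, limma adjusted p = 0.998).

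Whether the graft difference itself differed between lymphoid and myeloid types was tested on the difference of their mean log2 values in each heart. All 8 lymphoid and 4 myeloid types entered it with no minimum of cells per heart, Mo-DCs among them. Of 83 members, none passed the unadjusted threshold, where 4.23% of all 10650 genes did (450 genes), and none passed the adjusted one. The smallest p was that of *Rpl10a*, at -0.71 (SE 0.326, limma adjusted p = 0.994). In Mo-DCs alone *Rpl10a* stood at 2.39, with 0 CPM in replicate 5, which had 7 Mo-DCs. The part of that heart in the value of -0.71 was not tested. The median of the members was -0.11, beside 0.00 for all genes, and 12 of 83 (14.5%) were above 0, beside 50.4% of all genes. The 95% intervals of 78 members lay within 1 log2 unit of 0.

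The other lists were read from the same fit of the average over types, where no gene of them passed at an adjusted p of 0.05. Of the ribosome parts under other names, *Fau* (0.01) and *Rack1* (0.06 on the log2 scale) did not pass the unadjusted threshold either. The same was true of the 12 elongation and termination factors, from *Gspt1* (-0.21) and *Eef1e1* (-0.15) to *Eef1d* (0.04) and *Abce1* (0.09), and of the 16 genes of mTOR and TOP mRNA control, from *Mtor* (-0.27) and *Eif4ebp2* (-0.18) to *Rptor* (0.19) and *Akt1* (0.21). In this fit 4.57% of all genes passed the unadjusted threshold. Of 31 initiation factors, *Eif4e* passed it with a lower level in the IL-33+ hearts, at -0.25 (SE 0.119, limma adjusted p = 0.989). *Eif3m* stood at -0.18, *Eif3i* at 0.17 and *Eif4a2* at 0.18.

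Against the same 4.57% of all genes, 2 of 41 ribosome assembly genes, *Gar1* (-0.50) and *Wdr43* (-0.40), passed, both lower and both at a limma adjusted p of 0.989, and *Nop56* (0.17) and *Utp20* (0.29) had the highest values. Of 78 mitochondrial ribosome genes 2, *Mrpl49* (-0.61) and *Mrps2* (-0.40), passed, again lower and at a limma adjusted p of 0.989, while *Mrpl17* (0.39) and *Mrpl57* (0.40) did not. The median of these 78 genes was -0.08, and that of the cytoplasmic members was 0.015. Of the 12 early response and heat shock genes 1 passed the unadjusted threshold with a higher level, and the list's median was 0.18. *Hspa1b* (0.59) and *Hspa1a* (0.44) had its highest values and *Hsp90aa1* (0.11) and *Fos* (0.04) its lowest, none of them with an unadjusted p of 0.05 or less.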

How the data were processed

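Single-cell RNA-Seq was measured in cells of 6 hashtagged Bm12 heart grafts pooled in 1 library. Per the labels, reads were processed with Cell Ranger on mm10 and analysed in Partek Flow 10.0.23.0425. The authors filtered cells by their UMIs, detected genes and mitochondrial percent. The deposited values are log2(CPM + 1), 1 for each cell and gene, beside the type, genotype and hashtag of the cell. How hashtags were assigned to cells is not given in the sources used here, and no further doublet removal was made. After the logarithm was undone, 99.94% of low values lay within 0.05 of a whole UMI. A mean of several identifiers stands behind 22 symbols, 0 of them ribosomal protein genes.

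Mean CPM was taken per type and heart, and the heart was the replicate. Per-heart values of log2(mean CPM + 10) were compared with limma 3.58.1 (eBayes with trend) in R 4.3.3, for all genes with at least 10 UMIs and a UMI in at least 3 hearts, with Benjamini-Hochberg adjustment over all genes tested and a two-sided threshold of 0.05. p-values compare 3 hearts per group, but eBayes draws the variance of each gene towards a trend fitted over all genes. They therefore do not measure the spread of a gene's own hearts alone, and in Mo-DCs the trend set the variance. The fit was also run on counts simulated from NK cells, the largest type, which does not cover types with few cells in a heart. Its outcome is not reported here. Python 3.11.15, numpy 2.4.6, pandas 2.3.3, scipy 1.17.1 and matplotlib 3.10.9 served for the rest. Depth was 908139 to 7012940 UMIs per heart, and types with few cells in a heart give imprecise means. Positions are those of GENCODE vM21, and sequences those of RefSeq on GRCm38.p6.

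Members, lists and tests were chosen with earlier results of these data known. Genes named are the 5 highest and 5 lowest members, the 8 that ranged most and the 4 that ranged least over types relative to the other members (at 50 CPM or more), paralogs, members called in the average, the 2 with the smallest p in each type, and of each other list the 2 genes with the highest and the 2 with the lowest fold change. Further genes in the descriptions of types and in the calls within types were chosen after their values were seen. Some items that this rule names are not reported here. Alternatives changed the pseudocount, low-count filter, summing, scaling, limma method, cells, types and hearts used.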

Additional observations from a re-analysis of the deposited data

How the results depend on the processing

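No paired analysis was made because the sources used here give no pairing of hearts between the groups. No member reached an adjusted p of 0.05 under any alternative, and the 29 named differences kept their direction in all 465 alternative values, with a lowest adjusted p of 0.0693 (*Rpl10a* in Mo-DCs without IL-33- replicate 6). These 29 were picked for a small p in the same hearts, so their kept direction is not independent support. The 1 unadjusted call in the average over types became 0 with a pseudocount of 50 CPM, summed UMIs, quantile normalization, eBayes without trend, without cells above 10000 UMIs, without cells above 10% mitochondrial UMIs and with types of at least 20 cells in each heart. It became 2 with no filter on low counts and with all 14 types, and leaving out each heart gave 0 to 1. The 0 unadjusted calls between lymphoid and myeloid types became 4 with a pseudocount of 50 CPM, 1 with summed UMIs, quantile normalization or eBayes without trend, and 0 to 2 when each heart was left out. The 35 unadjusted calls within types became 3 with eBayes without trend and 50 with limma-voom, and ranged from 9 to 38 when each heart was left out. The difference in share between the groups ranged from -0.0119 to 0.353 percentage points when each heart was left out and was -0.0672 with types of at least 20 cells, and the median member difference ranged from 8.92e-05 to 0.0286. The ratio of the share in Tn over that in fibroblasts, taken within hearts and then averaged, was 4.17 in cells of 2000 to 3500 UMIs. It was 2.76 to 2.92 when each heart was left out. The share in Tregs was 9.76% in cells with a UMI of *Foxp3*. The alternatives on this ratio and on the share in Tregs and Mo-DCs were chosen after seeing the data. The causes were not tested. Some types had as few as 2 to 4 cells in a heart, and what size of difference could be detected there was not tested.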
